A study of Mus musculus with 16 samples.

Results

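The genes described here carry pyruvate into mitochondria-bound metabolism, turn the tricarboxylic acid (TCA) cycle and break down fatty acids. They were 43 named genes, taken by symbol as rows of the deposited expression table, out of 35275 genes in that table. All 43 were found, and 41 of them had a mean level of at least 0.5 FPKM (fragments scaled to gene length and library depth) over the 16 libraries and were tested. Cpt1b and Fabp3 lay below that level and are described from their fragments.

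RNA was measured in C2C12, a long-used line of mouse myoblasts whose cells stop dividing and fuse into myotubes once serum is lowered. The labels describe the cells as PAX7 negative and the RNA as poly(A) enriched. The control cells were 2 populations labelled wild-type, and the knockout cells were 2 clones in which 3 microRNA genes, miR-206 and both copies of miR-1a (miR-1a-1, miR-1a-2), were knocked out (triple knockout, tKO). RNA of every line was taken near confluence in growth medium with 20% fetal bovine serum (GM) and after 3 days in differentiation medium with 2% horse serum (DM3), in 2 cultures (BR1 and BR2). This gave 4 groups of 4 libraries, named here by genotype and medium. A clone descends from a single cell and a population does not, so an effect of the knockout and an effect of cloning cannot be told apart, and cultures of 1 line share that line.

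As background, pyruvate made by glycolysis is oxidised to acetyl-CoA by the mitochondrial pyruvate dehydrogenase complex, which its kinases switch off by phosphorylation, or is carboxylated to oxaloacetate by pyruvate carboxylase. Acetyl-CoA is burnt in the TCA cycle, and the malate-aspartate shuttle carries reducing equivalents from the cytosol to the matrix. Long-chain fatty acids enter as carnitine esters, are shortened by β-oxidation, and pass electrons to the respiratory chain through the electron transfer flavoprotein. Skeletal muscle relies on these routes during sustained work, and the miR-1 and miR-206 family is abundant in muscle.

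The mature miR-206 sequence is shown first because its seed, the stretch that pairs with targets, was searched for in the 3′ UTRs of the members. It comes from RefSeq on build GRCm38.p6 (chr1:20679055-20679076, plus strand), with the seed, bases 2 to 8, in capitals. The only matching stretch in the longest annotated 3′ UTR of any of the 43 members (GENCODE release M21) was in Cpt1a, at chr19:3385422-3385451 on the plus strand of GRCm38, with the 7 matching bases in capitals.
mmu-miR-206-3p: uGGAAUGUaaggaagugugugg
Cpt1a site: acccaagtgtgACATTCCtctctcaggtct
The letters searched were ACATTCCA, ACATTCC and CATTCCA, the shorter ones counted where the longer was absent. A match was found in 1 of 43 members (2.33%) and in 2048 of 10806 tested genes with a 3′ UTR (19%). The members' 3′ UTRs were shorter, with a median of 602 bases against 1191.5. A match is a run of letters and not a measured binding site.

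Promoters of 40 members (48 promoters, 250 bases before to 50 after the start, RefSeq on GRCm38.p6) were searched on both strands for motifs of factors known to act on mitochondrial genes. The estrogen-related receptor motif TCAAGGTCA was in 0 of 48, against 0.423% of all 32851 promoters. The nuclear respiratory factor 1 motif, GCGCA directly followed by TGCGC, was in 1, that of Etfdh, against 0.971% of all. The direct repeat of AGGTCA with 1 base between the copies was in 0, against 0.0396% of all.

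Depth was 22642563 to 56585952 fragments per library. In GM the summed level of 8 myotube markers was 9.21 to 12.7 FPKM for control and 10.8 to 73.4 for tKO libraries, where clone 1, culture 2 was highest. Most of the sum in that library was Acta1 (72.1). The summed level reached 858 to 1372 in control DM3, where 8 of 8 markers had a mean of at least 0.5 FPKM, as in tKO DM3. The tKO DM3 libraries split by culture, at 1408 and 1447 in culture 1 and 342 and 481 in culture 2. In both culture 2 libraries Acta1, Mylpf, Tnnt3, Tnni1 and Ckm lay below the control DM3 range, and Tmem8c did in clone 1 alone. Myog (19.3 and 3.89) and Myh3 (15.8 and 18.6) did not, with control ranges of 2.35 to 8.65 and 7.14 to 16.1. Tnnt3 lay below the control DM3 range in culture 1 of tKO DM3 as well, at 135 and 140 against 187 to 259. Of 6 adipocyte markers 1, Fabp4, had a mean of at least 0.5 FPKM in any group (0.283 to 11.5, highest in tKO GM clone 1, culture 2), while Adipoq reached at most 0.0964, Plin1 0.0726 and Lep 0. The 6 summed to 1.85 to 5.29 (control) and 0.837 to 11.8 (tKO) in GM, and to 0.893 to 3.38 and 0.529 to 3.64 in DM3. None of 3 endothelial markers had such a mean, with sums of at most 0.0673 (control) and 0.435 (tKO) in GM and 0.0434 and 0.177 in DM3. Of 2 macrophage markers used, Ptprc reached at most 0.0619 and Cd68 lay at 0.658 to 3.98, with sums of 1.17 to 2.03 and 0.691 to 3.01 in GM and 1.17 to 3.605 and 0.908 to 4.04 in DM3. The 5 fibroblast markers, 4 of them with a mean of at least 0.5 in every group, summed to 904 to 1419 (control) and 502 to 1039 (tKO) in GM, and to 2613 to 3072 (control) and 1689 to 3296 (tKO) in DM3. Among them Pdgfra was lower in every tKO library than in the control libraries of its stage (0.323 to 1.48 against 2.54 to 3.95 in GM, 0.891 to 2.48 against 2.62 to 4.58 in DM3), and so was Dcn in DM3 (5.36 to 14.3 against 25.2 to 34.4). Col1a2 was lower too (262 to 523 against 528 to 733 in GM, 990 to 1470 against 1521 to 1776 in DM3). Dcn overlapped in GM. Col1a1 overlapped in both stages, at 692 to 1811 in tKO DM3 and 1037 to 1258 in control DM3. Lum reached at most 0.330. The myoblast and muscle marker Des stood at 262 to 415 in control DM3, at 312 and 210.2 in clone 1 and at 98.3 and 80.2 in clone 2. The other myoblast markers did not share this. Cdh15 was higher in every tKO than in every control library in GM (19.6 to 40.3 against 8.15 to 11.4). In DM3 it overlapped (32.9 to 52.6 in tKO, 23.3 to 38.0 in control), as did Myf5 and Myod1. The part of these markers in the members' genotype differences was not tested. In bulk RNA, fewer cells of a type and less RNA per cell cannot be told apart.

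The tested members differed widely in level. FPKM is scaled to the deposited gene length, and on that scale levels are set side by side between genes. Whether that length matches the transcripts present was not tested, which also bears on ratios and shares between genes. In control GM, Mdh2 (mitochondrial malate dehydrogenase) was highest at 229.8 ± 18.4 FPKM (SD, n = 4), followed by Cs (citrate synthase) at 200.1 ± 2.85 and Got2 (mitochondrial aspartate aminotransferase) at 146 ± 9.90. The spreads of Mdh2 and Cs were smaller than the gap between their means. At the bottom of the tested members were Cpt2 at 8.70 ± 0.880, Pdk2 at 2.43 ± 0.298 and Slc25a20 at 0.959 ± 0.178.

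**Figure D1:**
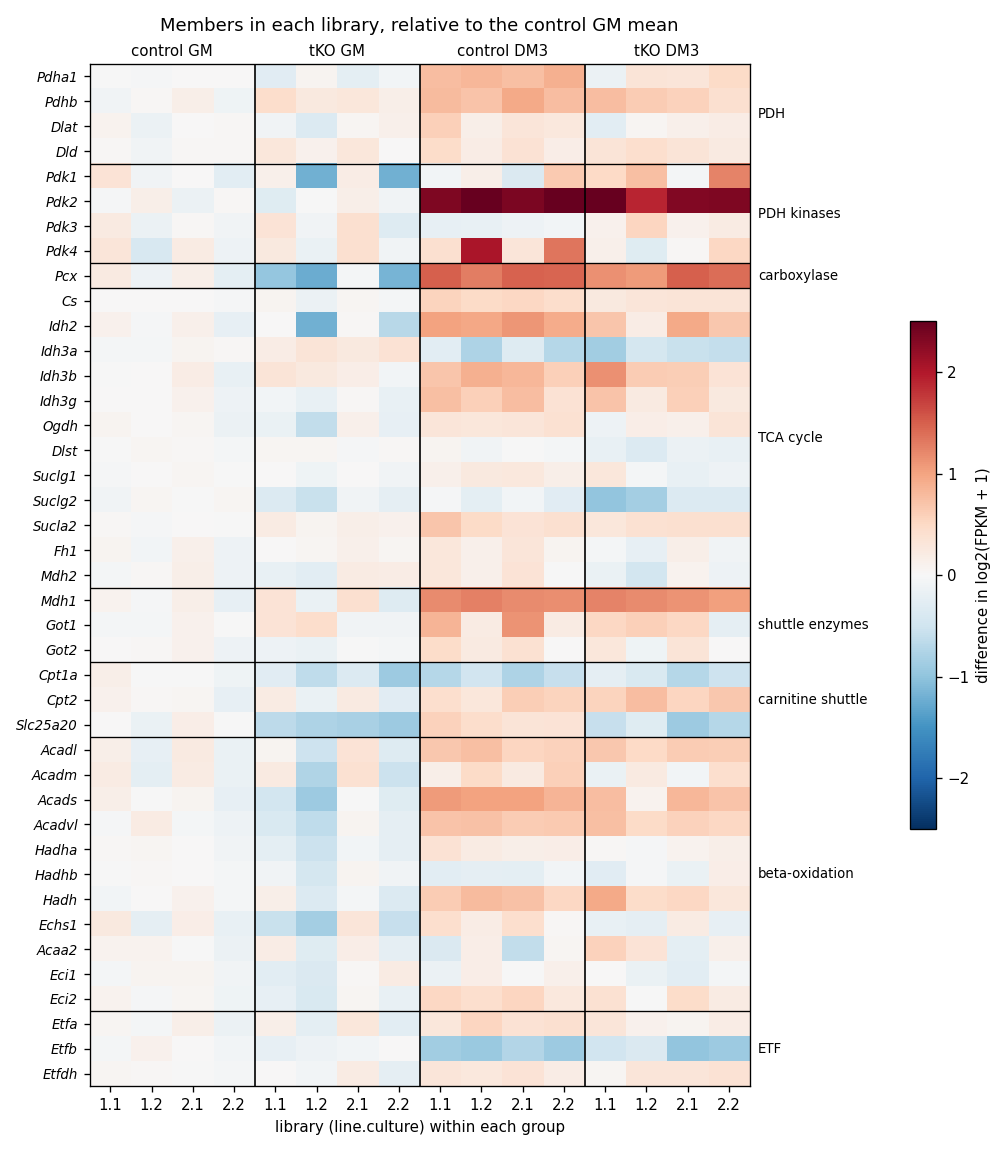
Each of the 41 tested members (rows, ordered by role) in each of the 16 libraries (columns, line and culture number within each group), as the difference in log2(FPKM + 1) from the control GM mean. Pdk2 and Pcx were raised in all DM3 libraries, Slc25a20 was lowered in every tKO library, and in tKO GM culture 2 of both clones lay below culture 1 for most members.

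The knockout was compared with control cells in each stage. In both stages the tKO cells had less Slc25a20 RNA. In GM they also had less Pcx RNA, and in DM3 less Pdha1 RNA. No member was called higher in tKO cells in either stage. A member was called when its Benjamini-Hochberg adjusted p, from limma over all 11832 genes tested, was under 0.05. In GM 0 members were called higher and 2 lower, with 0.549% of all tested genes called higher and 1.51% lower. In DM3 0 members were called higher and 2 lower, against 2.02% and 1.36% of all tested genes. In either direction, 2.06% of all tested genes were called in GM and 3.38% in DM3, and 2 calls among 41 members are too few to set the members apart from that background. At an unadjusted p under 0.05 there were 9 members in GM (22% of 41, with 17.5% of all tested genes) and 13 in DM3 (31.7%, with 16.8% of all tested genes).

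Slc25a20 encodes the carnitine-acylcarnitine translocase, which carries long-chain acylcarnitines across the inner mitochondrial membrane (ENSMUSG00000032602, chromosome 9, 108662098 to 108684641, plus strand, build mm10). Values are given in each group in the order line 1 culture 1, line 1 culture 2, line 2 culture 1, line 2 culture 2. In GM it stood at 0.963, 0.745, 1.18 and 0.947 FPKM in control cells and 0.246, 0.149, 0.107 and 0.0364 in tKO cells. In DM3 it stood at 1.92, 1.67, 1.44 and 1.47 in control cells and 0.314, 0.585, 0.0405 and 0.198 in tKO cells. Every tKO library lay below every control library of its stage, and clone 2 had the lowest value in both stages. The ratio of means, control over tKO, was 7.13 in GM and 5.72 in DM3. On the log2(FPKM + 1) scale, which understates changes of low genes, the difference was -0.79 in GM (SE 0.133, adjusted p = 0.0044) and -1.05 in DM3 (SE 0.133, adjusted p = 0.000182). With a pseudocount of 0.1 it was -2.24 and -2.38, and with voom on the fragments -3.01 and -2.93. The gene was low in all cells. Its fragments numbered 33 to 71 (control) and 2 to 13 (tKO) per library in GM, and 82 to 168 (control) and 2 to 30 (tKO) in DM3. The difference was below 0 within each culture number, at -0.82 and -0.76 in GM and -1.19 and -0.90 in DM3. In GM it was no longer called with line averages as units (adjusted p = 0.105) or without control population 1 (0.114) or 2 (0.261). No annotated gene overlaps Slc25a20.

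Pcx encodes pyruvate carboxylase, which replenishes oxaloacetate (ENSMUSG00000024892, chromosome 19, 4510472 to 4621752). It stood at 17.4, 13.4, 16.4 and 12.2 FPKM in control GM and 7.01, 5.63, 14.1 and 6.05 in tKO GM. Clone 2, culture 1 lay within the control range and the other 3 tKO libraries lay below it. The log2 difference was -0.86 (SE 0.204, adjusted p = 0.0389). The call was lost when any 1 of 11 libraries was left out, namely each of the 8 control libraries and each tKO GM library other than clone 2, culture 1 (adjusted p from 0.0506 to 0.151). It was also lost in a fit of the GM libraries alone (adjusted p = 0.103) and with line averages as units (0.108). Without clone 2, culture 1, the difference was -1.12, and 5 members were called lower in GM, with Cpt1a, Acadvl and Echs1 beside Slc25a20 and Pcx. The calls over all genes rose in the same fit, from 244 (2.06%) to 749 (6.33%). In DM3 Pcx stood at 43.1, 37.3, 42.9 and 42.3 in control and 33.5, 31.9, 43.3 and 40.3 in tKO cells, and the groups overlapped (log2 difference -0.16, adjusted p = 0.752). Lrfn4 lies on the opposite strand within Pcx, and whether counting used the strand is not given in the sources used here. Lrfn4 averaged 31.0 ± 2.72 FPKM in control GM and 27.3 ± 2.23 in tKO GM.

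Pdha1 encodes the catalytic α subunit of pyruvate dehydrogenase that the kinases phosphorylate (ENSMUSG00000031299, chromosome X, 160122209 to 160138413). In DM3 it stood at 149, 154, 147 and 161 FPKM in control cells and 78.2, 108, 107 and 121 in tKO cells. The groups did not overlap, and clone 1, culture 1 was lowest. The log2 difference was -0.57 (SE 0.119, adjusted p = 0.0123), a ratio of means of 1.48, control over tKO. It was -0.69 within culture 1 and -0.46 within culture 2, and -0.73 (adjusted p = 0.00894) without the culture 2 libraries of tKO DM3, in which the summed level of the myotube markers was low. It was not called with line averages as units (adjusted p = 0.0718) in a fit of the DM3 libraries alone (0.101), or without control population 1 (0.376) or 2 (0.251). In GM Pdha1 stood at 86.6, 84.8, 87.6 and 87.5 in control and 71.4, 90.8, 72.5 and 82.6 in tKO cells, which overlapped (log2 difference -0.13, adjusted p = 0.617). Map3k15, on the opposite strand, averaged 0.101 FPKM over all libraries.

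**Figure D2:**
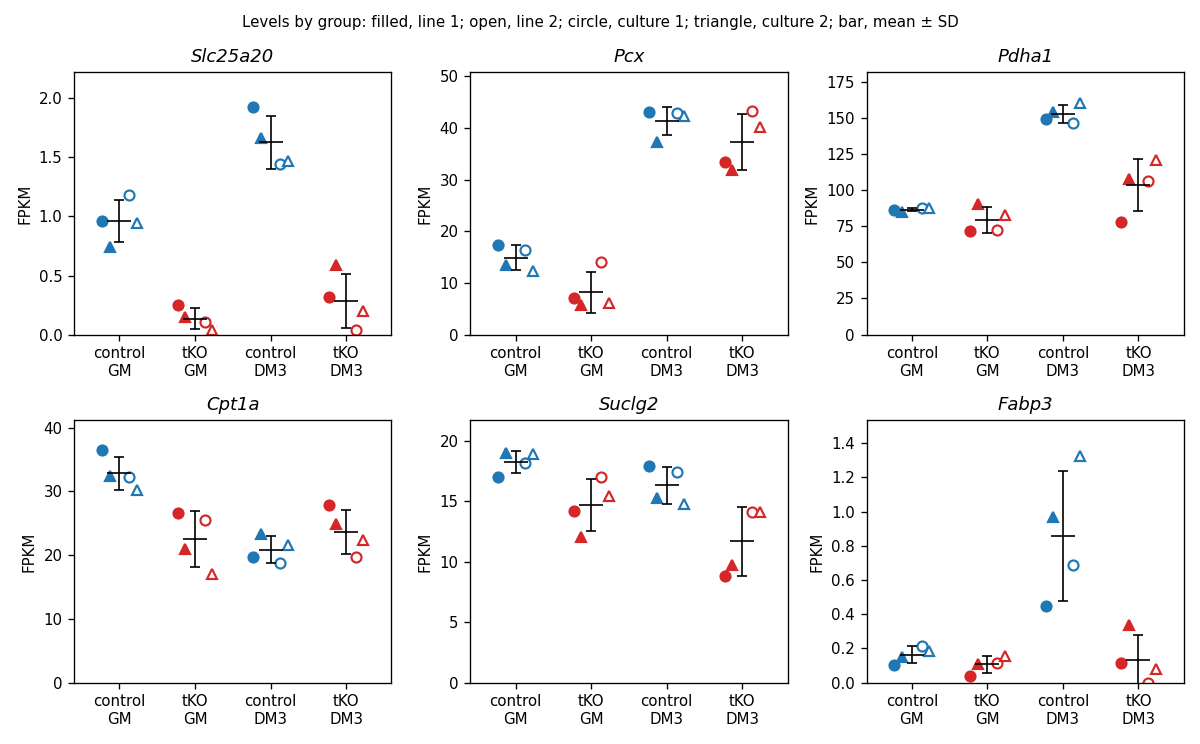
FPKM of 6 members in the 4 groups, with 1 point per library (filled, line 1; open, line 2; circles, culture 1; triangles, culture 2) and bars for the mean ± SD of 4 libraries. Slc25a20 was lower in every tKO library than in the control libraries of the same stage, and the genotypes also separated for Pdha1, Suclg2 and Fabp3 in DM3 and for Cpt1a in GM.

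Cpt1a encodes the outer-membrane carnitine palmitoyltransferase that commits long-chain fatty acids to oxidation, and it held the 1 seed match shown above. It stood at 36.4, 32.5, 32.3 and 30.1 FPKM in control GM and 26.6, 20.9, 25.5 and 17.0 in tKO GM. All 4 tKO libraries lay below all control libraries, but the log2 difference of -0.54 (SE 0.137) missed the threshold (adjusted p = 0.0507). It passed in 8 of 30 alternative settings. In DM3 Cpt1a was at 19.7, 23.4, 18.7 and 21.6 in control and 27.8, 24.8, 19.7 and 22.4 in tKO cells, with overlap (log2 difference 0.17, adjusted p = 0.572).

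The genotypes did not overlap in GM for 2 members that were higher in every tKO library (Idh3a and Sucla2) and 2 that were lower (Cpt1a and Slc25a20). Of all tested genes, 5.38% and 8.62% did so, 14% in either direction. In DM3 there was 1 member above (Pdk3) and there were 6 below (Pdha1, Cs, Dlst, Suclg2, Slc25a20 and Acads), with 4.22% and 4.3% of all tested genes, 8.52% in either direction. Suclg2, the GDP-forming β subunit of succinyl-CoA synthetase, stood at 17.9, 15.3, 17.4 and 14.8 FPKM in control DM3 and 8.79, 9.71, 14.1 and 14.2 in tKO DM3 (log2 difference -0.47, adjusted p = 0.0873). Clone 1 was lower than clone 2, and without clone 2 the difference was -0.76 (adjusted p = 0.00228). Acaa2, the last thiolase step of mitochondrial β-oxidation, stood at 49.0, 71.1, 41.4 and 66.0 in control DM3 and 95.4, 81.2, 53.6 and 69.2 in tKO DM3, a difference of 0.39 that did not pass (adjusted p = 0.302). Of the shuttle genes Got1 differed most in DM3 (-0.24, adjusted p = 0.614), and of the flavoprotein genes Etfa (-0.24, adjusted p = 0.345), and neither passed.

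Most of these differences had a negative sign. In DM3 the tKO minus control difference was below 0 for 33 of 41 members (80.5%) and for 48.6% of all tested genes. For the TCA cycle it was below 0 for 12 of 12 genes, from -0.06 (Idh3b) to -0.47 (Suclg2), and 0 of 12 passed. Within each culture number it was below 0 for 11 of 12. The median over members was -0.18 against 0.0077 over all tested genes. In GM it was below 0 for 30 of 41 members and for 52.3% of all tested genes, with medians of -0.09 and -0.01. For β-oxidation in GM it was below 0 for 11 of 11 genes, and 0 of 11 passed. Within culture 1 it was below 0 for 7 of 11 (Acadl, Acadm, Hadh and Acaa2 were above 0) and within culture 2 for 11 of 11. With median-of-ratios scaling the GM count fell to 26 of 41, and the counts of 33, 12 and 11 were as before.

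Succinyl-CoA synthetase has an ADP-forming and a GDP-forming isozyme, and the RNA ratio of their β subunits was higher in every tKO library than in the control libraries of its stage. Sucla2 encodes the ADP-forming one. In GM it stood at 36.7, 35.4, 36.4 and 35.6 FPKM (control) and 41.8, 38.1, 40.1 and 39.0 (tKO), and in DM3 at 58.8, 50.7, 46.0 and 47.6 (control) and 44.2, 47.5, 48.1 and 48.1 (tKO). Suclg2 stood at 17.0, 19.0, 18.2 and 19.0 in control GM and 14.2, 12.01, 17.0 and 15.5 in tKO GM. The ratio of Sucla2 to Suclg2 within a library, which does not depend on scaling, was in GM 1.86 to 2.16 (control) and 2.35 to 3.17 (tKO), and in DM3 2.64 to 3.32 (control) and 3.40 to 5.03 (tKO). The genotypes did not overlap in either stage, and within the tKO cells clone 1 had the higher ratios. The ratio itself was not tested. The ratio of Mdh1 (cytosolic) to Mdh2 was 0.228 to 0.267 (control) and 0.167 to 0.350 (tKO) in GM, and 0.435 to 0.550 (control) and 0.502 to 0.761 (tKO) in DM3. The genotypes overlapped in both stages and the stages in neither genotype. The ratio of Got1 to Got2 overlapped between all 4 groups, from 0.248 to 0.496 over the libraries.

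**Figure D3:**
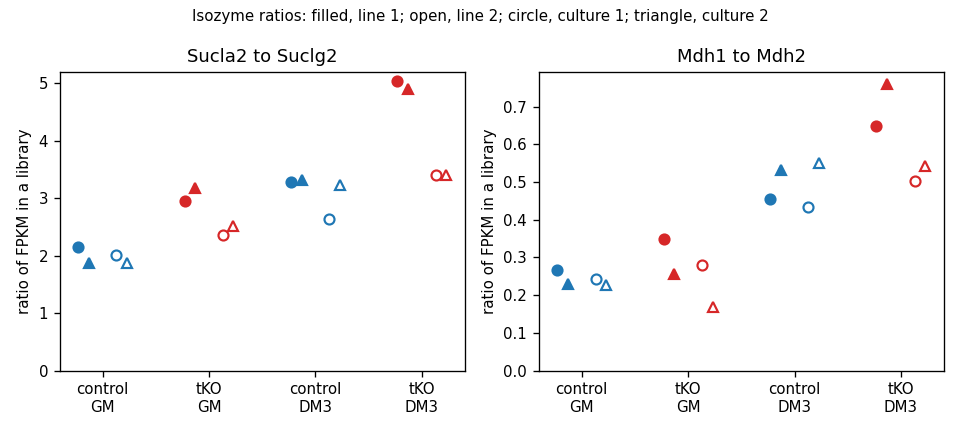
Ratio of FPKM within each library for Sucla2 to Suclg2 and for Mdh1 to Mdh2, with 1 point per library (filled, line 1; open, line 2; circles, culture 1; triangles, culture 2). Sucla2 to Suclg2 was 1.86 to 2.16 in control GM and 3.40 to 5.03 in tKO DM3, and Mdh1 to Mdh2 was higher in all DM3 libraries than in all GM libraries.

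More members were called between stages than between genotypes, with rises outnumbering falls. In control cells 24 of 41 members rose and 3 fell between GM and DM3, while 23.2% of all tested genes were called higher and 38.3% lower, 61.5% in all. In tKO cells 20 rose and 3 fell, against 24.9% and 36% of all tested genes, 60.9% in all. The stages did not overlap for 25 members that were higher and 4 that were lower in control cells (24.5% and 39.8% of all tested genes), and for 14 and 3 members in tKO cells (19.3% and 29.8%). The 2 comparisons have no libraries in common. Both called 18 members higher and 2 lower (Idh3a and Etfb), 7 were called in control cells alone (Dlat, Dld, Pdk4, Got1, Cpt1a, Slc25a20 and Etfa), 3 in tKO cells alone (Pdk1, Dlst and Hadha) and 11 in neither. No member was called in opposite directions, and 50.6% of all tested genes were called in both genotypes. The median change over members was 0.36 (control) and 0.27 (tKO), with -0.15 and -0.12 over all tested genes. With median-of-ratios scaling the median of all genes was 0.0097 and 0.0063, and 30 members rose and 3 fell in control cells and 23 rose and 2 fell in tKO cells.

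The differentiation change was tested for a difference between genotypes. The genotype by stage interaction called 0 members, with 0.254% of all tested genes called. At an unadjusted p under 0.05 there were 8 members (19.5%, with 10.8% of all tested genes), and voom also called 0. The members named as called in control cells alone or in tKO cells alone are therefore not shown to differ between genotypes. Without tKO GM clone 2, culture 1, the interaction called 1 member, Pcx (log2 difference of differences 0.97, adjusted p = 0.0344).

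**Figure D4:**
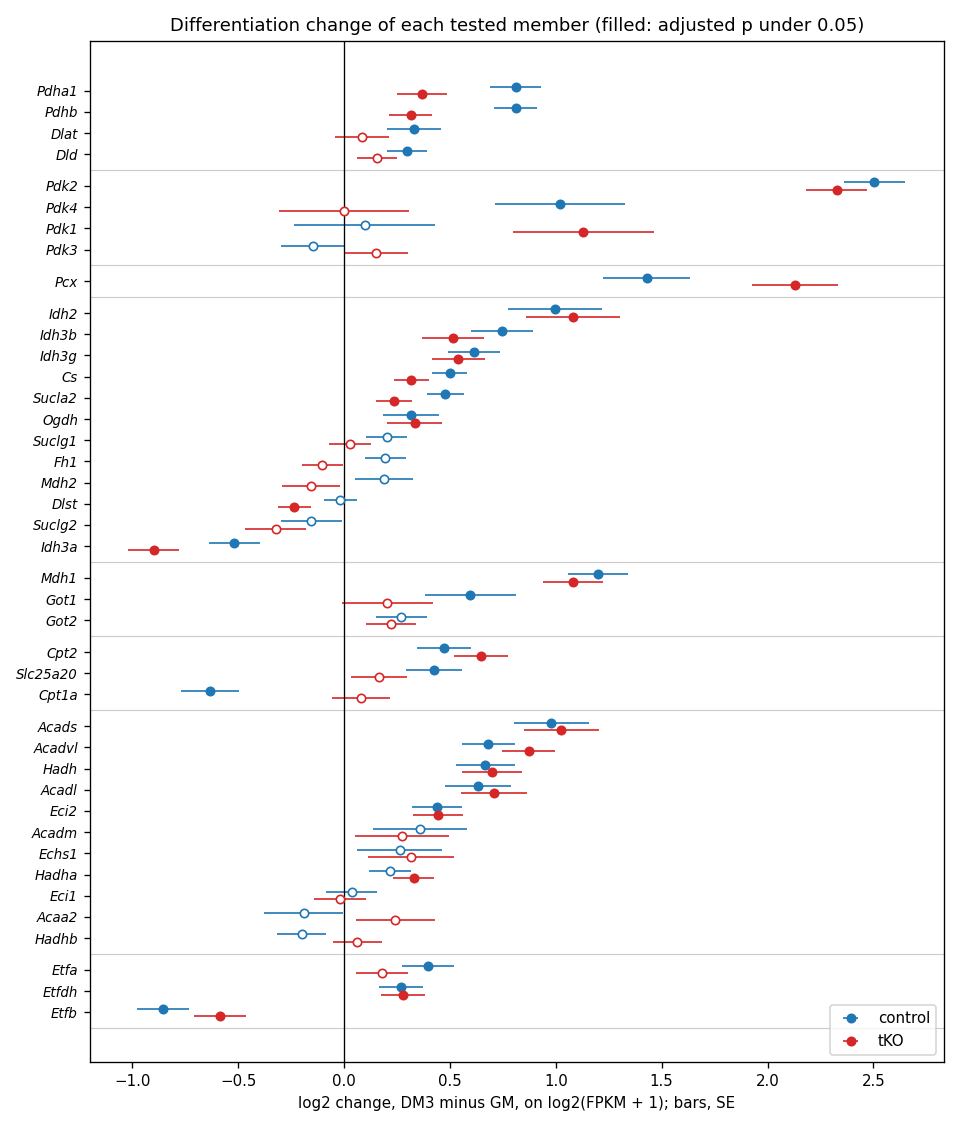
Change from GM to DM3 on log2(FPKM + 1) for each tested member, grouped by role, in control (blue) and tKO cells (red), with bars for the SE and filled points for an adjusted p under 0.05. Pdk2 and Pcx rose most in both genotypes and Etfb and Idh3a fell in both, while Pdk4 and Pdk1 were each called in a single genotype.

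All 4 members that belong to the pyruvate dehydrogenase complex rose in control cells and 2 of 4 rose in tKO cells. Pdhx, a gene of the complex outside the members, did not share this rise. Its control libraries overlapped between stages, at 8.46 to 11.2 FPKM in GM and 8.15 to 11.8 in DM3. Its tKO libraries stood at 11.6 to 12.7 in GM and 10.7 to 11.5 in DM3. Pdha1 rose by 0.81 in control cells (adjusted p = 2.15e-05), from a range of 84.8 to 87.6 FPKM to 147 to 161, and by 0.37 in tKO cells (adjusted p = 0.0131). Without the culture 2 libraries of tKO DM3 the tKO rise was 0.21 and did not pass (adjusted p = 0.184), nor did it without clone 2 (0.19, adjusted p = 0.332), without its culture 2 in DM3 alone (0.29, adjusted p = 0.0505) or in a fit of the tKO libraries alone (adjusted p = 0.0736). Pdhb, the β subunit of the same enzyme, stood at 50.2, 54.5, 59.1 and 49.4 in control GM and 93.3, 88.4, 104 and 91.2 in control DM3 (log2 change 0.81, adjusted p = 4.58e-06). In tKO cells Pdhb stood at 72.6, 62.9, 64.9 and 58.8 in GM and 91.1, 82.9, 79.2 and 70.5 in DM3 (0.31, adjusted p = 0.0133). Dlat (the acetyltransferase) and Dld (the dehydrogenase shared with other complexes) rose by 0.33 and 0.30 in control cells, with changes of 0.08 and 0.15 in tKO cells that did not pass.

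Of the kinases that inactivate the complex, 2 of 4 rose in each genotype. Pdk2 rose most of all members. It stood at 2.37, 2.80, 2.07 and 2.48 FPKM in control GM and 16.1, 22.4, 16.6 and 19.1 in control DM3. The tKO libraries stood at 1.79, 2.40, 2.78 and 2.21 in tKO GM and 18.5, 11.7, 16.1 and 16.1 in tKO DM3. The stages did not overlap in either genotype, with log2 changes of 2.50 (adjusted p = 1.65e-09) and 2.33 (3.41e-09) and ratios of means of 7.64 and 6.81. Pdk3 stayed between 11.7 and 21.8 FPKM in all 16 libraries and was not called for differentiation.

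Pdk4, a kinase induced by fasting in muscle, stood at 16.5, 9.73, 15.4 and 11.9 FPKM in control GM and 17.6, 57.1, 16.4 and 34.5 in control DM3. Both culture 2 libraries of control DM3 were high and both culture 1 libraries were close to GM. The change was 1.02 (adjusted p = 0.00871). It was not called without control population 1 (0.78, adjusted p = 0.0849). In tKO cells Pdk4 stood at 15.7, 11.5, 17.5 and 12.3 in GM and 14.4, 10.5, 13.4 and 19.2 in DM3, with a change of 0.00 that did not pass (adjusted p = 0.999). In DM3 the tKO minus control difference was -0.92 (adjusted p = 0.121), at -0.27 within culture 1 and -1.57 within culture 2.

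Pdk1, a kinase known as a hypoxia target, stood at 34.9, 25.6, 27.6 and 22.7 FPKM in control GM and 26.1, 30.5, 21.1 and 43.8 in control DM3, which overlapped (0.10, adjusted p = 0.819). In tKO cells it stood at 30.0, 11.4, 31.1 and 11.4 in GM and 39.0, 46.5, 26.5 and 65.8 in DM3 (1.13, adjusted p = 0.00758). In tKO cells culture 2 was the lower culture of each clone in GM and the higher in DM3. The tKO change was not called without clone 1 (adjusted p = 0.071). Without the culture 2 libraries of tKO DM3 the change was 0.75 (adjusted p = 0.116). Summed over the 4 kinases, Pdk1 made up 44.6% to 49.8% of the FPKM in control GM and 24.8% to 39.3% in control DM3, and Pdk2 3.33% to 5.45% and 17.1% to 24.5%. In tKO cells Pdk1 made up 29.0% to 45.2% (GM) and 36.8% to 55.6% (DM3), and Pdk2 2.69% to 6.12% and 12.95% to 22.3%. The Pdk1 share was thus lower in every DM3 than in every GM library of the control cells, and overlapped between stages in tKO cells.

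**Figure D5:**
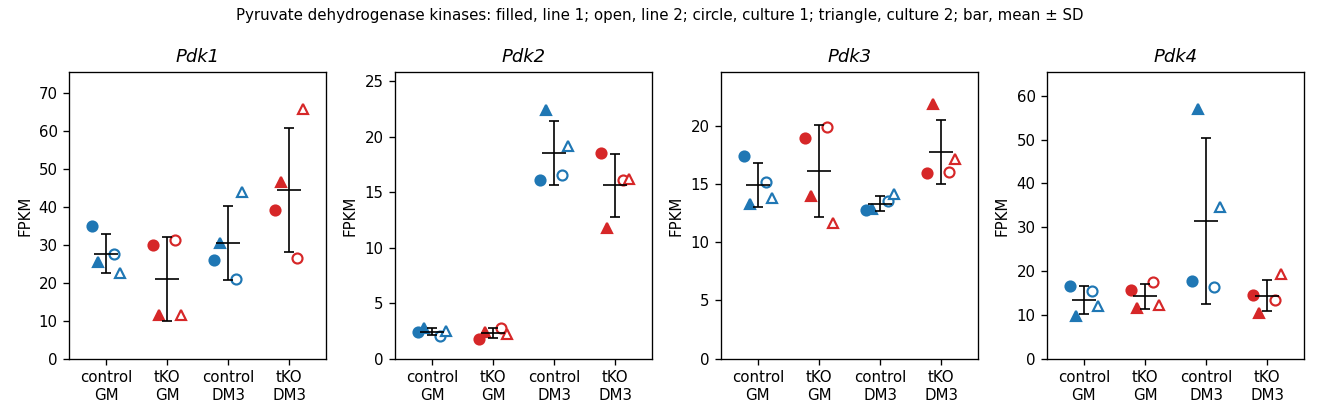
FPKM of the 4 pyruvate dehydrogenase kinases in the 4 groups, with 1 point per library (filled, line 1; open, line 2; circles, culture 1; triangles, culture 2) and bars for the mean ± SD of 4 libraries. Pdk2 rose in all DM3 libraries, Pdk4 was raised in the culture 2 libraries of control DM3 (57.1 and 34.5), and Pdk1 was lowest in the culture 2 libraries of tKO GM (11.4 in each).

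Pyruvate carboxylase rose in both genotypes. The log2 change of Pcx was 1.43 in control cells (adjusted p = 1.69e-05) and 2.13 in tKO cells (2.47e-07), and no DM3 library overlapped the GM libraries of its genotype. The ratio of means was 2.78 in control and 4.54 in tKO cells.

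In the TCA cycle 6 of 12 genes rose and 1 fell in control cells, and 6 rose and 2 fell in tKO cells. The largest rise was in Idh2, the NADP-dependent mitochondrial isocitrate dehydrogenase. It stood at 63.4, 57.8, 64.6 and 50.6 FPKM in control GM and 119, 115, 127 and 112 in control DM3 (log2 change 1.00, adjusted p = 0.00102, and 0.053 without control population 2). In tKO cells it stood at 59.2, 25.1, 60.4 and 36.2 in GM and 95.3, 66.9, 115 and 94.4 in DM3 (1.08, adjusted p = 0.000502).

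The subunits of the NAD-dependent isocitrate dehydrogenase went opposite ways. Idh3b, a non-catalytic subunit, rose (0.75 in control, 0.51 in tKO), as did Idh3g (0.61 and 0.54). Idh3a, the catalytic subunit, fell by 0.52 in control cells (adjusted p = 0.00138) and by 0.90 in tKO cells (adjusted p = 8.45e-06). It stood at 50.0, 50.3, 54.3 and 52.7 FPKM in control GM and 42.8, 30.0, 41.0 and 31.3 in control DM3. In tKO cells it stood at 59.2, 64.7, 61.1 and 67.2 in GM and 27.8, 37.7, 34.8 and 33.8 in DM3, with no overlap between stages in either genotype. In control cells Idh3b stood at 55.0, 55.7, 62.7 and 48.7 in GM and 89.6, 103, 98.6 and 83.9 in DM3. Nop56 lies on the opposite strand over Idh3b. Cs, Ogdh and Sucla2 also rose in both genotypes, by 0.24 to 0.50. Suclg1, Suclg2, Fh1 and Mdh2 were called in neither, and Dlst fell by 0.24 in tKO cells (adjusted p = 0.015). With median-of-ratios scaling 9 TCA genes rose and 1 fell in control cells, and 6 rose and 1 fell in tKO cells. Over all libraries Ogdh ranged from 44.2 to 89.1 FPKM, Dlst from 66.9 to 89.1, Idh3g from 41.4 to 81.1, Fh1 (fumarase) from 39.3 to 56.8 and Suclg1, the α subunit of succinyl-CoA synthetase, from 23.9 to 33.2.

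In the malate-aspartate shuttle Mdh1, the cytosolic malate dehydrogenase, rose in both genotypes. It stood at 59.1, 53.9, 61.3 and 47.9 FPKM in control GM and 127, 133, 127 and 125 in control DM3 (1.20, adjusted p = 2.5e-06). In tKO cells it stood at 70.9, 49.0, 73.6 and 43.9 in GM and 131, 127, 122 and 114 in DM3 (1.08, adjusted p = 6.99e-06). Mdh2 stood in control cells at 221, 234, 253 and 211 (GM) and 280.3, 251, 293 and 228 (DM3), and in tKO cells at 203, 191, 263 and 263 (GM) and 203, 167, 243 and 210.4 (DM3), and its stages overlapped in both genotypes. Got1, the cytosolic aminotransferase, stood at 41.2, 41.4, 45.9 and 42.3 in control GM and 78.0, 49.3, 94.5 and 49.1 in control DM3 (0.60, adjusted p = 0.024), with culture 1 higher than culture 2 in DM3. In tKO cells Got1 stood at 54.2, 58.6, 39.9 and 40.0 in GM and 61.4, 64.9, 61.8 and 36.4 in DM3 (0.20, adjusted p = 0.433). Got2 stood in control cells at 147, 149, 157 and 133 (GM) and 203, 169.9, 190.5 and 148 (DM3), and in tKO cells at 134, 130.1, 144 and 141 (GM) and 179, 136, 184 and 147 (DM3), and was called in neither genotype.

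Of the 3 tested genes of the carnitine shuttle 2 rose and 1 fell in control cells, and 1 rose in tKO cells. Cpt1a fell by 0.63 in control cells (adjusted p = 0.000792), and its change of 0.08 in tKO cells did not pass (adjusted p = 0.631). Cpt2, the inner-membrane carnitine palmitoyltransferase, rose (0.47 in control, 0.64 in tKO) and ranged from 6.99 to 15.5 FPKM over all libraries. Slc25a20 rose by 0.42 in control cells (adjusted p = 0.011), a call that was lost with a pseudocount of 0.1 (adjusted p = 0.14), with voom (0.0791), with line averages as units (0.0548) and without control population 1 (a change of 0.25, adjusted p = 0.357). Its change of 0.17 in tKO cells did not pass (adjusted p = 0.296). Cpt1b, the muscle isoform of the outer-membrane enzyme, had 2 to 12 (control) and 4 to 10 (tKO) fragments per library in GM, and 0 to 4 (control) and 1 to 2 (tKO) in DM3, where 3 control libraries held 0. A count of 3, taken here as the upper limit for a count of 0, would be 0.053 to 0.132 FPKM for a gene of 1 kb. The length of Cpt1b is 2895 bases, so its own limit in FPKM is lower. It stood at 0.119, 0.0278, 0.0307 and 0.117 FPKM in control GM, 0.0583, 0.0610, 0.0550 and 0.112 for tKO. In DM3 the values were 0, 0, 0 and 0.0408 (control) and 0.0215, 0.0240, 0.0125 and 0.0222 (tKO). The ratio of Cpt1b to Cpt1a was at most 0.0066 in any library. In GENCODE release M21 the protein-coding gene Gm44502 overlaps Cpt1b on the same strand. How reads shared by such genes were counted is not given in the sources used here, so the low Cpt1b values may be affected.

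Of the 11 genes of β-oxidation 5 rose in control cells and 6 in tKO cells, and 0 fell. Acads, the short-chain acyl-CoA dehydrogenase, stood at 24.7, 22.0, 23.4 and 19.3 FPKM in control GM and 47.6, 45.5, 45.6 and 41.1 in control DM3 (0.98, adjusted p = 0.000154). In tKO cells it stood at 15.8, 11.4, 22.0 and 17.7 in GM and 38.5, 23.7, 40.5 and 37.2 in DM3 (1.03, adjusted p = 9.88e-05). The stages did not overlap in either genotype.

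Acadvl, the very-long-chain dehydrogenase, stood at 24.0, 19.9, 33.0 and 26.6 in tKO GM and 53.8, 44.0, 46.9 and 45.5 in tKO DM3 (0.87, adjusted p = 1.79e-05), and rose from 30.8, 36.1, 30.2 and 28.8 to 51.7, 52.9, 49.4 and 49.7 in control cells (0.68). Acadl, the long-chain dehydrogenase, stood at 43.7, 28.6, 53.3 and 32.9 in tKO GM and 66.7, 59.1, 64.8 and 64.0 in tKO DM3 (0.71), and at 46.1, 36.2, 48.5 and 37.0 and 66.6, 70.6, 61.1 and 62.2 in control cells (0.63). Hadh, the 3-hydroxyacyl-CoA dehydrogenase of short and medium chains, stood at 21.2, 14.8, 18.3 and 14.7 in tKO GM and 37.7, 26.3, 27.5 and 23.4 in tKO DM3 (0.70), and at 18.0, 19.2, 20.6 and 18.3 and 30.0, 33.6, 32.0 and 27.6 in control cells (0.67). Eci2, an enoyl-CoA isomerase, rose by 0.44 in each genotype and Hadha, of the trifunctional protein, by 0.33 in tKO cells. Acadm, Echs1, Acaa2, Eci1 and Hadhb were called in neither. Over all libraries Hadha ranged from 40.5 to 75.6 FPKM, Eci1 from 30.4 to 45.5, Eci2 from 16.2 to 31.6, Echs1 from 10.2 to 26.1 and Hadhb from 12.2 to 19.2.

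The subunits of the electron transfer flavoprotein also went opposite ways. Etfb stood at 113, 127, 119 and 112 FPKM in control GM and 64.4, 61.9, 70.4 and 62.7 in control DM3, a log2 change of -0.85 (adjusted p = 1.83e-05). In tKO cells it stood at 102, 108, 113 and 118 in GM and 84.2, 91.0, 59.3 and 62.2 in DM3 (-0.59, adjusted p = 0.00059). Its partner Etfa stood at 76.2, 71.1, 81.7 and 67.0 in control GM and 90.6, 108, 95.1 and 97.3 in control DM3 (0.40, adjusted p = 0.0101). In tKO cells Etfa stood at 81.6, 62.0, 89.7 and 61.6 in GM and 91.3, 79.1, 76.9 and 83.6 in DM3 (0.18, adjusted p = 0.215). Etfdh, which passes the electrons to ubiquinone, rose (0.27 in control, 0.28 in tKO), at 11.1 to 17.2 FPKM over all libraries. In GENCODE release M21 the protein-coding gene Gm45233 overlaps Etfb on the same strand, and its part in the Etfb values was not tested. Dlat and Dld ranged from 23.0 to 44.9 and from 42.6 to 63.1 FPKM.

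Fabp3, the heart and muscle fatty acid binding protein, was low throughout. In GM it stood at 0.104, 0.147, 0.216 and 0.187 FPKM (control) and 0.0410, 0.107, 0.116 and 0.158 (tKO), and in DM3 at 0.445, 0.966, 0.687 and 1.33 (control) and 0.114, 0.338, 0 and 0.0781 (tKO). Control DM3 held 14 to 45 fragments and tKO DM3 0 to 8, with no overlap. In a fit without the filter on low genes the DM3 difference was -0.70 on the log2(FPKM + 1) scale (adjusted p = 0.0079) and the rise in control cells 0.65 (adjusted p = 0.000714). Zcchc17 overlaps Fabp3 on the opposite strand.

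The culture number moved with many members in GM. In tKO GM both clones were lower in culture 2 than in culture 1 for 32 of 41 members (78%), and 42.5% of all tested genes did the same. In control GM the count was 21 of 41 (51.2%), and the share of all genes 26.5%. For β-oxidation in tKO GM it was 10 of 11. Acadm, the medium-chain acyl-CoA dehydrogenase, stood at 44.7, 22.2, 49.9 and 26.0 FPKM in tKO GM and 44.3, 31.9, 44.1 and 33.7 in control GM. The summed myotube markers in tKO GM were 10.8 and 19.3 in culture 1 and 73.4 and 27.1 in culture 2, and their part in the culture difference was not tested. The median tKO minus control difference over members was -0.02 within culture 1 and -0.13 within culture 2 in GM, and -0.15 and -0.19 in DM3.

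Other genes of the same pathways were taken from a list of 46, of which 42 were tested. In GM 0 were called, and in DM3 2 were higher and 0 lower in tKO cells. Slc25a1, the mitochondrial citrate carrier, stood at 41.6, 38.2, 45.1 and 40.5 FPKM in control DM3 and 122, 149, 143 and 129.5 in tKO DM3 (log2 difference 1.69, adjusted p = 1.37e-07). In GM it stood at 39.6, 40.8, 39.1 and 34.4 in control and 42.0, 32.5, 41.7 and 29.6 in tKO cells, which overlapped, and the interaction was called (1.78, adjusted p = 9.84e-05). Slc27a4, a fatty acid transport protein, stood at 10.9, 8.83, 10.4 and 12.1 in control DM3 and 15.1, 16.4, 12.6 and 15.7 in tKO DM3 (0.47, adjusted p = 0.0213). With differentiation 13 rose and 11 fell in control cells, and 15 rose and 10 fell in tKO cells. Pdp1, the phosphatase that reactivates pyruvate dehydrogenase, rose (2.12 in control, 1.99 in tKO). Acsl3, which activates long-chain fatty acids, rose by 2.48 and 3.16, and Gpt2, the mitochondrial alanine aminotransferase, by 1.95 and 2.41. Slc27a1, a fatty acid transporter (-1.90 and -1.77), and Fabp5, a fatty acid binding protein (-1.80 and -2.04), fell.

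Of 9 regulators of these genes 7 were tested, and 0 were called between genotypes in either stage. Esrra, an estrogen-related receptor, rose (0.89 in control, 0.66 in tKO). Lpin1, a phosphatidate phosphatase that also acts as a coactivator, rose by 2.14 and 2.15, and Ppard by 0.33 and 0.57. Ppargc1a, a coactivator of mitochondrial genes, rose by 0.71 in tKO cells (adjusted p = 0.0489), though its stages overlapped there, and its 0.62 in control cells did not pass (adjusted p = 0.0817).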

How the data were processed

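Poly(A)-enriched RNA of 16 C2C12 libraries was sequenced on an Illumina HiSeq, per the labels' protocols. The authors deposited 1 table of FPKM values with gene lengths for 35275 genes. The submitters' processing notes name STAR and DESeq, without their roles, and build mm10; the counting program, the annotation and the use of strand are not given in the sources used here. FPKM times gene length gave whole fragments for 100% of values (tolerance 0.01), from which depth was taken.

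Levels were tested as log2(FPKM + 1) with limma 3.58.1 in R 4.3.3 (group means over 16 libraries, moderated variances with trend and robust settings), which differs from a count test because the deposited unit is FPKM. Genes with a mean of at least 0.5 FPKM were kept (11832), and p-values were Benjamini-Hochberg adjusted over all of them, with a threshold of 0.05. The contrasts were tKO against control in each stage, DM3 against GM in each genotype, and their interaction. On simulated data for the DM3 genotype contrast (11832 genes, 200 changed), 88% of 2-fold and 99% of 4-fold changes were recovered, with 6 false calls. The simulated libraries were independent, with no effect of line or culture, and only genes with a mean of at least 2 FPKM were changed. These rates therefore do not carry over to cultures that share a line, to low genes such as Slc25a20 (mean 0.751 FPKM) or to changes under 2-fold. Replicates are cultures of 2 lines per genotype, and the fit took the 4 libraries of a group as independent although cultures of 1 line share it. The p-values thus rest on a spread that mixes cultures and lines, and do not measure the spread between lines. With line averages as units, only the Slc25a20 call in DM3 was kept among the genotype calls of members. Floors on fragments cover counting error only.

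Values were printed per library for members that passed a genotype contrast, for the 10 largest differentiation changes in each genotype, for the largest DM3 genotype difference in each role, and for isozyme pairs. The members and lists were chosen with earlier results of these data known. Python 3.11.15 with pandas 2.3.3 and matplotlib 3.10.9 made the summaries and plots. Alternatives covered the pseudocount, the filter, median-of-ratios scaling, the samples fitted, replicate blocks, line averages, voom on fragments, and leaving out each library or line.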

Additional observations from a re-analysis of the deposited data

Results flagged for a closer look

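In groups of 4 libraries, 8 of 172 groups held a library standing apart from the other 3 by more than Dixon's 95% limit for 4 values. Chance flags about 1 in 20 groups. Pcx had 2 of them: 14.1 FPKM in tKO GM clone 2, culture 1, against 5.63 to 7.01, and 37.3 in control DM3 population 1, culture 2, against 42.3 to 43.1. Without the first of these libraries, 5 members were called lower in tKO GM in place of 2, while calls over all genes rose from 244 (2.06%) to 749 (6.33%). Got1 was at 36.4 in tKO DM3 clone 2, culture 2, against 61.4 to 64.9. Echs1, the enoyl-CoA hydratase of short chains, was at 22.3 in tKO DM3 clone 2, culture 1, against 16.3 to 16.8. Dld was at 42.6 in control GM population 1, culture 2, against 46.2 to 46.7, and Sucla2 at 44.2 in tKO DM3 clone 1, culture 1, against 47.5 to 48.1. Cpt1b was at 0.112 in tKO GM clone 2, culture 2, against 0.055 to 0.061, and at 0.0408 in control DM3 population 2, culture 2, where the other libraries were listed at 0.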

How the results depend on the processing

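The 2 members called in GM became 1 with no filter, 0 with a filter of mean FPKM 5, 1 with only the compared libraries and 0 with line averages as units. They were 3 with a pseudocount of 0.1 and with either replicate block (Cpt1a added), and Slc25a20 lies below the filter of 5. Leaving out 1 library gave 1 to 5 (5 without tKO GM clone 2, culture 1, where 6.33% of all genes were called), and leaving out 1 line 0 to 8 (8 without tKO clone 2, where 11.1% of all genes were called). The 2 called in DM3 became 1 with the filter of 5, with only the compared libraries and with line averages, 3 with no filter (Fabp3 added) and 4 with culture number within each stage as a replicate block (Pdk3 and Pdk4 added). Leaving out 1 library gave 2 to 3, and 1 line 1 to 5 (5 without tKO clone 2, with 9.6% of all genes called). In control differentiation the 27 became 22 to 29 without 1 library, 16 to 30 without 1 line and 25 to 33 otherwise. In tKO differentiation the 23 became 20 to 24, 17 to 21 and 16 to 25. Without both culture 2 libraries of tKO DM3, a choice made after seeing the data, 2, 2, 28 and 18 members were called in these 4 comparisons, and the interaction called 0. The interaction gave 0 to 1 without 1 library, the 1 being Pcx. Reversed signs were seen for Pcx in DM3 without tKO clone 1 (0.015, and -0.33 without clone 2) and for the Slc25a20 interaction with voom (0.082). The cause was not tested. Same-numbered cultures had deviations correlated at 0.096 to 0.45 in GM and -0.22 to 0.56 in DM3, so the number was not used as pairing. As a hint from the data, 8 of 8 same-numbered pairs were positive in GM and 5 of 8 in DM3. The other pairs (8 of 8 negative in GM, 7 of 8 in DM3) add no evidence. Values were centred within each group, which makes these pairs offset the same-numbered ones. The pairs also share libraries. The blocks called Cpt1a in GM (adjusted p = 0.0449, and 0.0176 within stage). Over all genes, the 244 calls in GM were 93 with the filter of 5, 97 with line averages and 635 with the stage-wise block, and the 400 in DM3 were 231, 131 and 748, with 113 in a fit of the DM3 libraries alone. Depth limits Slc25a20, Fabp3 and Cpt1b, whose tKO DM3 libraries held at most 30 fragments.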
